A study of Homo sapiens with 3 samples.

Results

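The replication-dependent histone genes were followed in IMR-90 cells, human fetal lung fibroblasts, after siRNA knockdown of SETD8. The group comprised 47 genes, taken from a list of gene names and matched to the array by gene number, among 19775 genes that the array names singly. They divide into 4 H1, 7 H2A, 15 H2B, 10 H3 and 11 H4 genes. All cells were kept in medium with 10% serum and were transfected for 24 h with a control siRNA labelled GL3 or with 1 of 2 siRNAs against SETD8, here SETD8 siRNA 1 and SETD8 siRNA 2. SETD8 (PR-Set7, current symbol KMT5A) is the enzyme that places a single methyl group on lysine 20 of histone H4. The data are 3 arrays of 54613 probe sets, 1 for each siRNA, which leaves no replicates, no error of the values and no test.

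Nucleosomes hold pairs of the core histones H2A, H2B, H3 and H4, and H1 binds the linker DNA between them. Most of this histone supply is made during S phase from clustered, intronless genes whose mRNAs end in a stem-loop, bound by the protein SLBP, in place of a poly(A) tail. When DNA synthesis stops, these stem-loop mRNAs are degraded quickly. Some of the genes can also give polyadenylated mRNAs, which are known from differentiated or resting cells. The label protocol names a standard Affymetrix cRNA preparation and gives no primer, so the share of polyadenylated mRNA in the signals was not tested.

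Of the 47 genes, 35 had a probe set that the annotation gives to that gene alone, and 12 appeared only on probe sets that list several genes. In all 55 probe sets carried a member: 28 with 1 gene and a unique suffix, 10 with 1 gene and a suffix that marks cross-binding (_s_at or _x_at), and 17 that list several genes. Among the 17, 6 have such a suffix and 11 do not. Histone genes are near-identical within a class, and a signal on such a set belongs to the class, not to a gene. Probe sets differ in binding strength, so levels are compared between arrays and never between probe sets.

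The promoters are shown first because most H2B signals lay higher after knockdown while the H4 signals split. RefSeq start sites of GRCh38.p14 gave a promoter window for 43 of the 47 genes, all but H3C11, H3C12, H4C1 and H4C3. Each window below is the 250 bases before the start, 5′ to 3′ on the gene's strand. Capitals mark the TATA-box letters TATAAA, the NF-Y box CCAAT, the octamer ATTTGCAT and the hexamer GGTCCG, each searched on both strands at any position. A TATAAA and its reverse complement overlap in the H2BC11 window. The hexamer was added after the windows had been read. A match describes letters and is not a bound site. In the H2BC4 and H2BC17 windows the only TATAAA match is on the opposite strand, near the end far from the start. It is not placed as a TATA box of these genes.

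H2BC11 and H2BC4 stand for H2B genes with higher signal after SETD8 knockdown. H2BC17 stands for an H2B gene that read near its control, at a signal too dim to show that it did not differ.
H2BC11, GRCh38.p14 chr6:27132796-27133045, minus strand: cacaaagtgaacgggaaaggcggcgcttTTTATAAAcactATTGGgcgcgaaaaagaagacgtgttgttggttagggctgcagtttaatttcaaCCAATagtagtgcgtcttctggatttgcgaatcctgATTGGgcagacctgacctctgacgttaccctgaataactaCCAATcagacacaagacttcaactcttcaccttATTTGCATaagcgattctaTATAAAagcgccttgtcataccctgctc
H2BC4, GRCh38.p14 chr6:26123927-26124176, minus strand: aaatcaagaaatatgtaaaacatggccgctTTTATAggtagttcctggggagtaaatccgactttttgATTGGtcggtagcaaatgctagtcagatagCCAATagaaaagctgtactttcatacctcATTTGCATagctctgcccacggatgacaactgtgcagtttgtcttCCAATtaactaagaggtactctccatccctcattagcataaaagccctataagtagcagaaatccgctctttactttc
H2BC17, GRCh38.p14 chr6:27893175-27893424, plus strand: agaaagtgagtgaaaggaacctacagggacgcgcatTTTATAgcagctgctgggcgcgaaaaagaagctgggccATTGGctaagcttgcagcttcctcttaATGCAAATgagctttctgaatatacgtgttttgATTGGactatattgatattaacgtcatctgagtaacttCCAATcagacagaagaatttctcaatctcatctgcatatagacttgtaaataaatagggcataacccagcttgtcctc

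H4C8 stands for an H4 gene with higher signal with both SETD8 siRNAs, and H4C5 for one under 2-fold.
H4C8, GRCh38.p14 chr6:26285535-26285784, minus strand: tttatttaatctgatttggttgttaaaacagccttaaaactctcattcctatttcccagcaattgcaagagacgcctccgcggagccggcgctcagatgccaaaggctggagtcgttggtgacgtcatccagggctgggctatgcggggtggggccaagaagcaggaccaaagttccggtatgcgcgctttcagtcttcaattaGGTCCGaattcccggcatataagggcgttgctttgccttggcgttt
H4C5, GRCh38.p14 chr6:26204360-26204609, plus strand: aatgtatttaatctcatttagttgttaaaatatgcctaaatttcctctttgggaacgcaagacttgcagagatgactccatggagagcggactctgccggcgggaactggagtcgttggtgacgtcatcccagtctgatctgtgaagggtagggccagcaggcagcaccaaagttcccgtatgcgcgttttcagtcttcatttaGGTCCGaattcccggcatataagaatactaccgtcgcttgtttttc

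Most H2B windows held ATTTGCAT, the octamer that OCT1 (POU2F1) binds in H2B promoters. It lay in 12 of 15 H2B and 6 of 7 H2A windows, in 1 of 8 H3 windows and in none of the 4 H1 and 9 H4 windows. Among all 27305 windows of this length, 1.66% held it. CCAAT, the box bound by NF-Y, lay in all 15 H2B, 7 H2A, 8 H3 and 4 H1 windows but in 3 of 9 H4 windows, against 33.0% of all windows. TATAAA lay in 29 of 43 windows, against 11.1%. All 9 H4 windows held GGTCCG, as did 1 of 15 H2B and 1 of 8 H3 windows, against 9.33% of all windows. As this hexamer was added after the windows had been read, its share in them is a description only. The H4C8 and H4C5 windows shared a run of 26 bases, ttaGGTCCGaattcccggcatataag, beginning 49 bases before the start in each, which no other window held. The H2BC4 window overlapped that of H2AC6 on the opposite strand by 245 bases, so these neighbours face away from each other across one stretch of DNA. H2BC11 and H2BC17 both held the octamer. Of the 6 genes at least 2-fold higher with both SETD8 siRNAs on a probe set of their own, 3 held ATTTGCAT, against 11 of the 27 other such genes with a window. The letters thus stood in genes of either group. No H1 or H4 window held them, so these shares also follow the mix of classes. Among the 6, H2BC14 and H4C9 were no longer 2-fold higher with both under a floor at the 40th percentile. The others include genes of dim signal, such as H2BC13 (8, 4.5 and 3), and are not all genes without a difference.

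All 4 KMT5A probe sets read below the control on either knockdown array, at 45.9% to 74.7% of control with SETD8 siRNA 1 and 62.2% to 86.3% with SETD8 siRNA 2. The direction went with the labels. These log2 fold changes ran from -0.21 to -1.12, and no KMT5A set was 2-fold lower with both siRNAs. All lay within the spread between the knockdown arrays described below, which was 1.57 and 1.37 in the middle signal quartiles. All 10 fibroblast markers were above the signal filter on these arrays, and their signals summed to 182363 (control), 194640 (SETD8 siRNA 1) and 188640 (SETD8 siRNA 2). Of 6 epithelial markers 3 passed, with sums of 3353, 3196 and 6491 that came mainly from KRT18 (2987.4, 2962.8 and 6010.1), while CDH1 stayed at or below 23.4. Of 4 endothelial markers 2 passed (sums 117, 296 and 142; CDH5 at or below 4.9), and of 4 measured leukocyte markers 1 passed (sums 101, 157 and 170). Their part in the histone values was not tested.

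Signals below 11.7, the 25th percentile of all values, were raised to it before taking log2, and a difference of at least 2-fold between arrays was counted. Over all 55 histone probe sets, 14 were at least 2-fold higher with SETD8 siRNA 1, where 7.47% of all probe sets were, and 2 were lower, where 8.38% were. With SETD8 siRNA 2, 22 were higher (6.59% of all) and 5 were lower (7.8% of all). With both siRNAs, 12 were higher, against 2.26% of all 54613 probe sets, and 2 were lower, against 3.52%. The 55 had median log2 fold changes of 0.42 (SETD8 siRNA 1) and 0.68 (SETD8 siRNA 2), where all probe sets had 0.00 for either. Both comparisons use the same control array. With the floor at the 40th percentile, 10 sets were higher with both and 1 was lower. With a signal filter taken from the control array alone (at least 46.2), 9 of 36 histone probe sets were higher with both, against 0.809%, and 1 was lower, against 4.01%.

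The classes differed in which way their signals went. The 12 higher sets were 8 of 18 H2B, 3 of 14 H4 and 1 of 12 H3 sets, with none among the 7 H2A or 4 H1 sets. Of all probe sets, 2.26% were higher with both and 3.52% lower. At these shares, the counts of H3, H2A and H1 do not set these classes apart from all probe sets. Both lower sets were H4 sets, and 1 of them, H4C13, was no longer lower with a floor at the 40th percentile. Median log2 fold changes for SETD8 siRNA 1 and siRNA 2, in the order used from here on, were 0.97 and 1.16 for H2B, 0.40 and 0.18 for H3, 0.30 and 0.23 for H4, -0.46 and 0.10 for H2A, and -0.25 and -0.37 for H1. These medians include dim sets. With the filter on the control array, they were 0.99 and 1.21 for 13 H2B sets and 1.12 and 0.84 for 6 H3 sets. They were then 0.32 and 0.23 for 8 H4, -0.41 and 0.18 for 6 H2A, and -0.44 and 0.38 for 3 H1 sets. The H3 medians thus lay near those of H2B there, and the H1 median with SETD8 siRNA 2 changed sign.

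**Figure D1:**
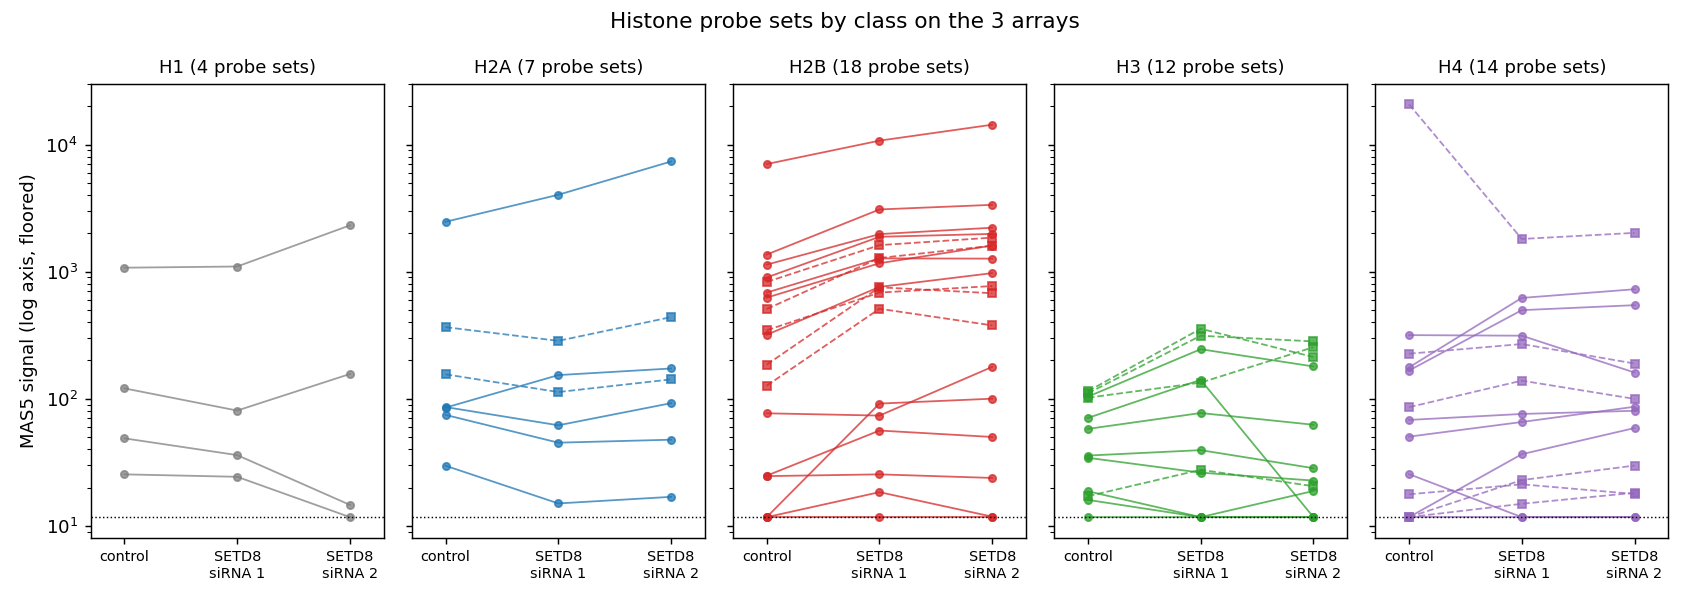
Signal of each of the 55 histone probe sets on the 3 arrays, by histone class, on a log axis floored at 11.7 (dotted line). Circles and solid lines are probe sets of 1 gene, and squares with dashed lines list several genes. Most H2B lines climb from the control array to both SETD8 siRNA arrays, whereas 1 H4 line drops from 20765.3 to 1808.4 and 2020.2.

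The H2B genes supply the core histone that carries the K120 ubiquitin mark. None of their 18 probe sets was 2-fold lower with either siRNA, where 8.38% (SETD8 siRNA 1) and 7.8% (SETD8 siRNA 2) of all were. Of the 18, 3 had a control signal under the floor and could not read lower. SETD8 siRNA 1 had 8 higher sets (7.47% of all probe sets) and SETD8 siRNA 2 had 13 (6.59%). H2BC11 had a control signal of 5.1, against 91.6 for SETD8 siRNA 1 and 100.1 for SETD8 siRNA 2. The control value was under the floor, so it was at least 7.83-fold and at least 8.56-fold higher. These bounds follow the floor, and with a floor at the 40th percentile H2BC11 had log2 fold changes of 1.75 and 1.87. The pair H2BC11 and H2BC8 shares a probe set with signals of 185.5, 753.3 and 676.5, and a second one with 126.7, 510.6 and 377.7. Neither is at the floor, and they gave 2.02 and 1.87, and 2.01 and 1.58, on the log2 scale. These 2 sets do not separate H2BC11 from H2BC8.

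H2BC4 had signals of 318.5, 758.6 and 974.3 (log2 fold changes 1.25 and 1.61). H2BC5 had 2 probe sets, both with a cross-binding suffix. The first read 1362.9, 3087.7 and 3357.5 (1.18 and 1.30), and the second read 900.3, 1881.0 and 1982.6 (1.06 and 1.14). H2BC14 was dim, at 24.8, 56.2 and 50 (1.18 and 1.01), and did not pass the filter over all arrays. With the higher floor H2BC14 had 1.04 and 0.87 and was no longer 2-fold higher with both. The sets of H2BC4, H2BC5 and H2BC14 were each lowest on the control array. A set that lists H2BC4, H2BC6, H2BC7, H2BC8 and H2BC10 and was designed from the H2BC4 transcript read 508.0, 1281.0 and 1600.7 (1.33 and 1.66). The other 2 sets with that list gave 0.96 and 1.16, and 0.99 and 1.16.

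The remaining H2B sets of 1 gene were not counted as 2-fold higher with SETD8 siRNA 1. H2BC12 read 7027.3, 10741.9 and 14344.1 (0.61 and 1.03). H2BC21, the member that lies outside the chromosome 6 clusters, read 624.4, 1165.2 and 1605.6 (0.90 and 1.36). H2BC6 had 0.80 and 0.97, and H2BC9 had 0.89 and 0.89, each on a set with a cross-binding suffix. H2BC3 read 76.8, 73.7 and 178.2 (-0.06 and 1.21), so only the SETD8 siRNA 2 array stood apart. H2BC17 was near its control on both arrays at 24.6, 25.4 and 23.8, and did not pass the filter over all arrays. H2BC15 read 8.0, 18.4 and 11.8, with its control under the floor, and H2BC13 was under the floor on all 3 arrays.

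The H4 genes gave the largest difference from the control on either knockdown array among the histone probe sets above the floor on all 3 arrays. All H4 genes of this group encode the same protein, the histone that KMT5A modifies. A probe set that lists 14 H4 genes, 11 of them members, read 20765.3 for the control, 1808.4 for SETD8 siRNA 1 and 2020.2 for SETD8 siRNA 2. It was 11.5-fold and 10.3-fold lower, that is, at 8.71% and 9.73% of control. RefSeq gives the accession it was designed from to H4C3, but the annotation does not separate H4C3 from the other listed genes. Among 27307 probe sets above the filter, 11 including this one had a mean log2 fold change as low. It was singled out after its values were seen.

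Of 5 other sets with several H4 genes, 4 carry the same list of 14. The set designed from H4C11 read 226.1, 269.5 and 189.2, and that designed from H4C14, which is no member, read 85.8, 138.8 and 99.7. The set designed from H4C8 read 4.7, 22.9 and 29.8, and that from H4C2 read 2.4, 14.9 and 18.2, both under the floor on the control array. The set for H4C6 and H4C7 read 17.7, 21.2 and 17.8. The sets designed from H4C11 and H4C14 were not lower with both siRNAs in the way of the H4C3-designed set, although they share its gene list. The sets designed from H4C8 and H4C2 and the set for H4C6 and H4C7 could not show such a fall. Their control signals were under or near the floor.

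H4C8 was higher with both siRNAs on each of its 2 own sets. One with a cross-binding suffix read 176.5, 621.5 and 727.0 (3.52-fold and 4.12-fold), and one with a unique suffix read 166.7, 497.9 and 544.9 (2.99-fold and 3.27-fold). H4C9 read 8.7, 36.6 and 58.8, so it was at least 3.13-fold and at least 5.03-fold higher against the floor, and it did not pass the filter. With a floor at the 40th percentile H4C9 had log2 fold changes of 0.42 and 1.11 and was no longer 2-fold higher with both. H4C4 read 68.1, 75.9 and 80.4, and H4C5 read 50.3, 65.6 and 86.5, neither reaching 2-fold. The set annotated to H4C11 read 316.7, 313.4 and 160.7 (-0.02 and -0.98), but RefSeq gives the accession it was designed from to H4C12. H4C13 read 25.5, 4.6 and 4.6, at least 2.18-fold lower with either siRNA, at a signal near the floor throughout, and under a floor at the 40th percentile on all arrays. H4C1 was under the floor on all arrays.

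**Figure D2:**
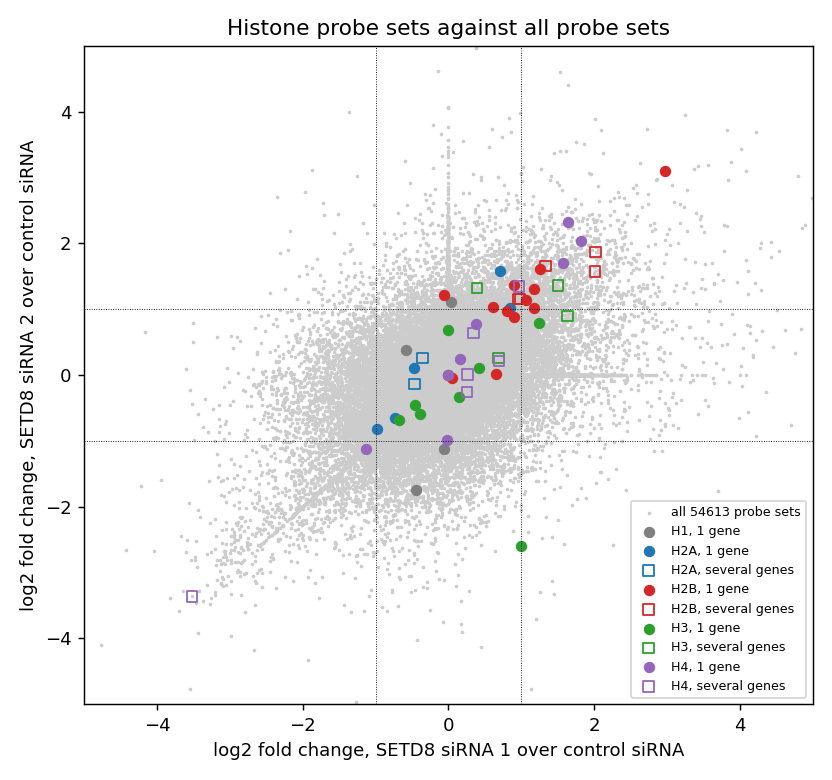
Log2 fold change against the control siRNA for SETD8 siRNA 1 (x axis) and SETD8 siRNA 2 (y axis). Grey points are all 54613 probe sets, some lying beyond the axes, filled circles are histone probe sets of 1 gene, open squares list several genes, and dotted lines mark 2-fold. The H2B points gather in the upper right and 1 H4 square lies at -3.52 and -3.36. Both axes share the control array.

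The H3 genes encode the histone whose tail carries the lysine 4, 9, 27 and 36 methyl marks. H3C6 had 2 sets, at 103.8, 245.3 and 179.5 (1.24 and 0.79) and at 57.9, 77.2 and 62.4 (0.42 and 0.11). Both were higher with SETD8 siRNA 1, by unequal amounts. A set that lists 10 H3 genes and H2AC7, designed from H3C4, read 110.3, 313.1 and 282.6 (1.51 and 1.36), the H3 set that was higher with both. The set that lists only H3C4 and the H2A gene H2AC7 read 114.4, 355.6 and 212.9 (1.64 and 0.90). RefSeq gives its accession to H2AC7, so its place among the H3 sets rests on the list alone. The 10-gene set designed from H3C10 read 101.9, 133.9 and 254.4 (0.39 and 1.32), and the other 10-gene set read 17.1, 27.6 and 20.5.

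H3C8 differed most between the SETD8 siRNAs, reading 70.6, 140.9 and 2.5. It was 2.00-fold higher with the first, just under the 2-fold count, and at least 6.03-fold lower with the second, on a single set with a cross-binding suffix. The second value follows the floor, and with a floor at the 40th percentile (27.3) H3C8 had a log2 fold change of -1.37, against -2.59. The other H3 sets of 1 gene were dim. H3C2 read 35.7, 39.4 and 28.4, H3C7 read 34.3, 26.2 and 22.7, and H3C3 read 10.4, 11.4 and 18.8. H3C1 (16, 3.2 and 4.3) and H3C11 (18.7, 1.8 and 1.2) were above the floor on the control array only, so the size of their differences was not measured.

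The H2A genes encode the partner of H2B in the nucleosome dimer. None of their 7 sets was 2-fold higher with SETD8 siRNA 1, where 7.47% of all probe sets were. H2AC6 read 2469.5, 4030.1 and 7365.5 (0.71 and 1.58), on a set with a cross-binding suffix. H2AC8 read 85.1, 153.5 and 173.0 (0.85 and 1.02). These 2 sets were 2-fold higher with SETD8 siRNA 2 and under 2-fold with SETD8 siRNA 1. H2AC6 and H2BC4, whose promoter windows overlap, were higher on both SETD8 siRNA arrays, and each had its highest signal with SETD8 siRNA 2. This order is not particular to the pair, as H2AC8, H2BC5, H2BC12 and H2BC21 had it too. All 7 H2A and 11 of 18 H2B sets read higher with SETD8 siRNA 2 than with SETD8 siRNA 1. H2AC4 read 74.6, 45.1 and 47.6 (-0.73 and -0.65), H2AC16 read 29.7, 15 and 16.9 (-0.99 and -0.81), and H2AC17 read 86.0, 61.8 and 92.3. A set of 6 H2A genes, H2AC11 and H2AC13 among them, read 365.8, 285.5 and 438.9, and a second with the same list read 155.6, 112.9 and 142.0. No H2A set was 2-fold lower with either siRNA, where 8.38% (SETD8 siRNA 1) and 7.8% (SETD8 siRNA 2) of all probe sets were.

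The H1 genes encode the linker histones, and their mRNAs also end in the stem-loop. H1-2 read 1074.6, 1098.0 and 2315.2 (0.03 and 1.11), level with the control for SETD8 siRNA 1 and higher for SETD8 siRNA 2. H1-3 read 120.7, 80.7 and 156.6 (-0.58 and 0.38). H1-4 read 48.8, 36.0 and 14.6 (-0.44 and -1.74), and H1-5 read 25.4, 24.3 and 4.8 (the last under the floor), both at least 2-fold lower with SETD8 siRNA 2 at dim signal. All 4 sets have a unique suffix, and the 4 genes did not share a direction with SETD8 siRNA 2.

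Probe sets with and without cross-binding were set side by side. Of the 28 sets of 1 gene with a unique suffix, 5 were higher and 1 was lower with both siRNAs, where 2.26% and 3.52% of all probe sets were. The counts were 3 and 0 of 10 for sets of 1 gene with a cross-binding suffix, and 4 and 1 of 17 for sets that list several genes. Median log2 fold changes were 0.02 and 0.17, 0.90 and 1.05, and 0.69 and 0.90, in that order. Signal level ran with this split, since 14 of the 28, 9 of the 10 and 13 of the 17 passed the filter over all arrays. Within H2B, the medians were 0.63 and 1.02 over 8 unique sets, 0.90 and 1.14 over 5 with a cross-binding suffix, and 1.33 and 1.58 over 5 that list several genes.

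Gene structure was examined after the values were seen. RefSeq gives 41 of the 47 genes a model of 387 to 797 bases, and it gives H2BC4, H2BC5, H2BC12, H2BC21, H3C4 and H3C6 models of 2224 to 13229 bases, all but H2BC21 with more than 1 transcript. The 7 probe sets of 1 gene for these (H3C4 has none) all lay above the control on both arrays, and 3 reached 2-fold with both. H2BC5 and H3C6 each gave more than 1 of the 7 sets. Their median log2 fold changes were 1.06 and 1.14. Among 31 sets of the short genes, 13 lay above the control on both arrays at any size and 9 below it on both. Of these 31, 5 reached 2-fold higher with both and 1 lower, and the medians were 0.03 and 0.10. Over all 54613 probe sets, 12540 lay above the control on both arrays at any size and 16210 below it. At 2-fold with both, 2.26% of all were higher and 3.52% lower. All 7 sets of long genes passed the filter over all arrays but 16 of the 31 of short genes did, and those 16 had medians of 0.54 and 0.93. Dim signal thus went with short genes, and its part was not tested. Class and length overlap, as 5 of the 7 sets are H2B sets. Within H2B the medians were 1.06 and 1.30 over the 5 sets of long genes, and 0.73 and 0.93 over the 8 of short genes, so the gap was narrower there.

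**Figure D3:**
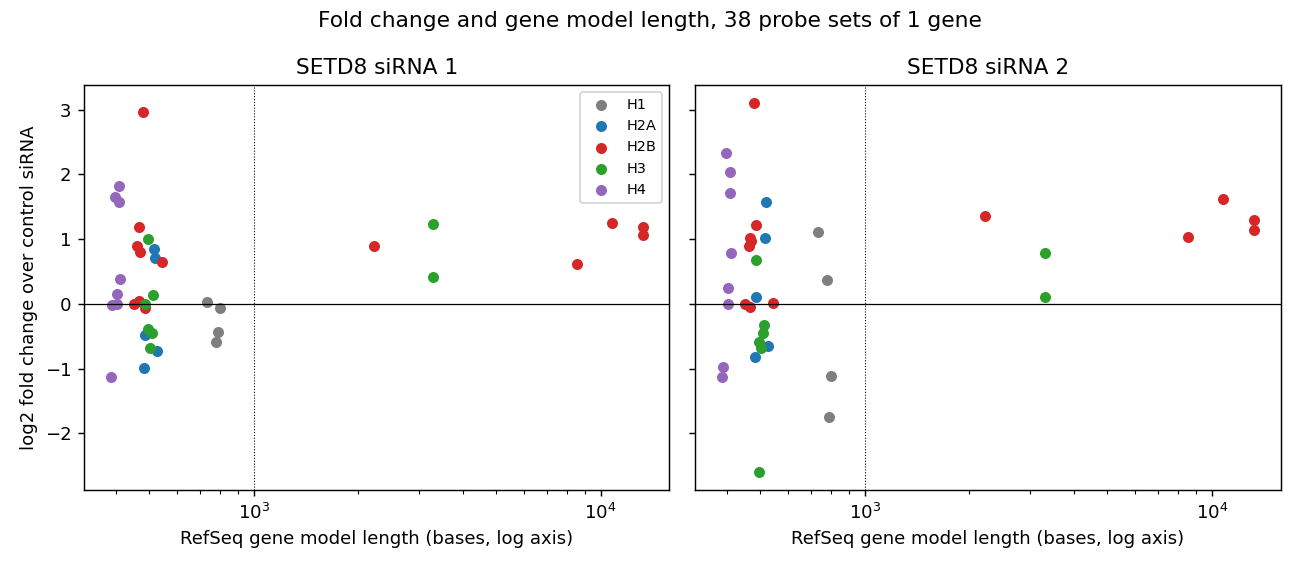
Log2 fold change over the control siRNA (y axes) against the RefSeq gene model length in bases (log x axes) for the 38 probe sets of 1 gene, with SETD8 siRNA 1 on the left and SETD8 siRNA 2 on the right. Colours mark the histone class and the dotted line marks 1000 bases. The 7 points right of it all lie above 0, between 0.42 and 1.25 on the left and between 0.11 and 1.61 on the right, and points of short genes lie on both sides of 0.

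Between the SETD8 siRNAs, 2 histone sets were at least 2-fold higher with SETD8 siRNA 2 than with SETD8 siRNA 1 (7.81% of all probe sets) and 3 were lower (8.19%). The higher ones were H2BC3 (1.27 on the log2 scale) and H1-2 (1.08). The lower ones were H3C8 (-3.59), H1-4 (-1.30) and H1-5 (-1.05). Both are smaller shares of the 55 than of all probe sets. As a yardstick for the spread between arrays, the size of the log2 difference from one knockdown array to the other was taken, and its 95th percentile was 1.82 in the lowest signal quartile above the filter and 1.19 in the highest. Histone sets beyond it with both siRNAs numbered 5 higher (H2BC11, the 2 sets of H2BC11 and H2BC8, and both of H4C8) and 1 lower (the H4C3-designed set) of 36, where 0.491% and 1.28% of all filtered probe sets lay beyond it. H2BC11 passed that filter through the knockdown arrays alone, and the other 4 were also above the filter on the control array.

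Where each gene was represented by its set with the highest mean signal, sets that list several genes fell away, and with them the H4C3-designed set. Of the 47 genes, 20 then passed a filter at the median signal (42.0). SETD8 siRNA 1 gave 5 higher genes (5.48% of 12307 genes) and 0 lower ones (7.75%). SETD8 siRNA 2 gave 10 higher genes (4.46%) and 1 lower, H3C8 (6.65%). With both, 4 were higher (1.5%) and 0 lower (3.23%). Since a gene such as H2BC11 passed only through the arrays on which it was high, these counts describe the gene table and support nothing further.

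The other genes of the pathway are given from lists of textbook members. Of all genes tested, 3.23% were at least 2-fold lower and 1.5% higher with both siRNAs. Of 14 measured genes of histone transcription, 1 passed 2-fold below the control on both knockdown arrays and none above, with medians of 0.02 and -0.37. The lower one was CCNE2, cyclin E2, a partner of the kinase CDK2 that phosphorylates the histone gene activator NPAT, at 1216.5, 166.5 and 362.2. CDK2 read 2751.4, 1234.5 and 1451.7 (-1.16 and -0.92). NPAT itself read 630.1, 713.6 and 438.2 (0.18 and -0.52). CASP8AP2 (FLASH), found with NPAT at histone loci, had -0.68 and -0.71, or 0.25 with SETD8 siRNA 2 when its probe sets were averaged, and NFYB, a subunit of the CCAAT-binding NF-Y, had -0.55 and -0.91.

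No gene of 28 in stem-loop processing and decay was 2-fold apart with both siRNAs, and the medians were -0.14 and -0.18. SLBP, which binds the stem-loop, read 6371.9, 4775.4 and 5629.7 (-0.42 and -0.18). The U7 snRNP subunits LSM10 and LSM11 had 0.52 and 0.14, and -0.73 and 0.00. ERI1, the exonuclease that trims the stem-loop, read 1242.0, 591.3 and 695.1 (-1.07 and -0.84), and TUT7, a uridylyl transferase, had 1.04 and 0.52, the latter -0.11 with probe sets averaged. SNRPF had -0.45 and -0.56, and SNUPN, the snRNP import adaptor, had -0.51 and -0.40. Among 7 polyadenylation factors none was 2-fold apart with both, with medians of -0.04 and -0.25. PABPN1, the nuclear poly(A)-binding protein, had 0.51 and 1.04, while NUDT21 (-0.09 and -0.76), CPSF6 (-0.12 and -0.31) and CSTF2T (-0.14 and -0.88) lay below the control.

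Histone variants, which replace the core histones at particular sites and whose mRNAs are mostly polyadenylated, are the closest relatives of the group. Of 9 measured, 2 passed 2-fold below the control on both knockdown arrays and none above, with medians of -0.46 and -1.07. These were CENPA, the centromeric H3 variant (853.8, 161.0 and 123.5), and H2AX, the variant phosphorylated at DNA breaks (4844.8, 1753.4 and 1497.9), though averaging the H2AX probe sets gave -0.22 and -0.75. H2AZ2 had -0.74 and -0.82, and H1-10 had -0.55 and -1.07. H2AJ, named after its values were seen, lay above the control at 2463.6, 4013.5 and 4034.0 (0.70 and 0.71). Of 16 histone chaperone genes, 3 were lower with both and none higher (medians -0.36 and -0.73): the CAF-1 subunit CHAF1B (-2.05 and -1.66), ASF1B (-1.48 and -1.73) and MCM2 (-2.52 and -2.33). CHAF1A had -1.26 and -0.93, and NASP, the carrier of free H3 and H4, had -0.58 and -1.51.

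The DNA replication genes, which share S phase with the stem-loop histone mRNAs, were lower in 26 of 31 cases with both siRNAs, and none was higher (medians -1.95 and -1.77). CDT1 had -4.42 and -2.65, CDC45 -2.36 and -3.23, POLE2 -2.65 and -2.44, and GINS2 -2.85 and -2.30, the last being -0.42 and -0.18 without cross-binding sets. Beside them, the 20 filtered histone genes had medians of 0.75 and 0.99, or 0.14 and 0.38 over 35 genes without the filter, and the H4C3-designed set lay at -3.52 and -3.36. In cultured cells, a changed share of cells in S phase and a changed level per cell cannot be told apart from these arrays. Of 22 further replication-dependent histone genes outside the group, 7 had an own probe set and 2 passed the filter: H2AC14 at 218.4, 373.7 and 222.4, and H2AC15 at 38, 49.9 and 97.2.

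**Figure D4:**
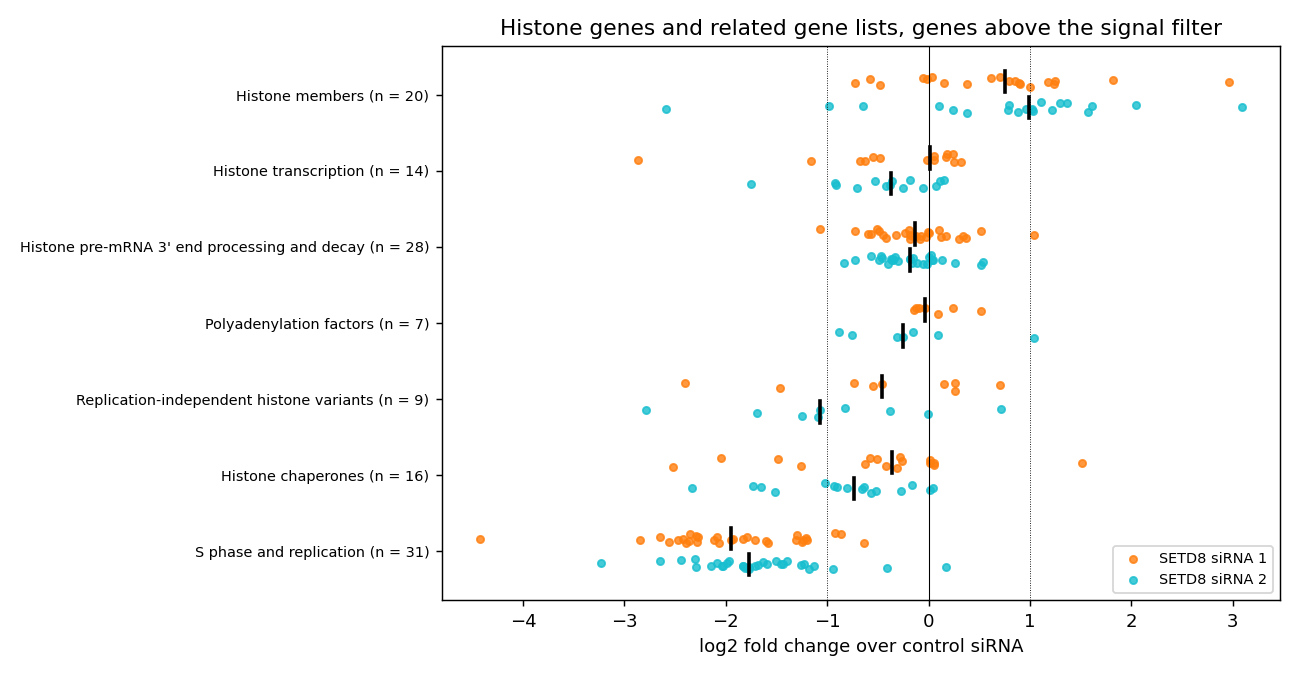
Log2 fold change over the control siRNA (x axis) for the histone genes and 6 related lists, genes above the signal filter, with SETD8 siRNA 1 in orange and SETD8 siRNA 2 in blue. Points are genes, black bars are medians and dotted lines mark 2-fold. The medians of the histone genes that passed lie at 0.75 and 0.99 (0.14 and 0.38 without the filter, not drawn), and those of the replication genes at -1.95 and -1.77.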

How the data were processed

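The 3 IMR-90 samples were measured on 1-colour Affymetrix arrays. The deposited values are intensity values, 1 linear MAS5 signal per probe set, per the submitters' processing notes. Its version and settings: not given in the sources used here. The method brings each array to a common level, so no further scaling was applied, and a shift of all genes would not be seen. Median signals of 44.9 to 46.2 were left as they were. Detection calls were not used here, so low signals may be background, and the number of arrays limits the precision.

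Probe sets were named through GEO's platform annotation, which can be old, updated by gene number to RefSeq symbols of GRCh38.p14. 41091 of 54613 probe sets had 1 gene, 1801 had several and 11721 were not listed. Values under 11.7 (25th percentile) were raised to it, and log2 differences against the control array were counted at 2-fold. A fold against an array at that floor is a lower bound. For related lists, a gene was represented by the probe set of highest average log2 signal, kept at or above the median (42.0). The named genes were KMT5A, every measured member, up to 4 genes per related list with the largest change shared by both siRNAs, and 7 fixed genes of histone mRNA synthesis. KRT18 and CDH1 were named after their values were seen. The members and lists were chosen with earlier results of these data known. The counting was tested on simulated data, with planted changes well over 2-fold in bright probe sets only. That test does not cover changes near 2-fold or dim signals. Python 3.11.15, numpy 2.4.6, pandas 2.3.3 and matplotlib 3.10.9 were used.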

Additional observations from a re-analysis of the deposited data

Results flagged for a closer look

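H2BC3 and H3C8 lay on opposite sides of the control on the 2 SETD8 siRNA arrays and at least 2-fold apart. H2BC3 was 1.27 higher on the log2 scale with SETD8 siRNA 2 than with SETD8 siRNA 1, with signals of 76.8 (control), 73.7 and 178.2. H3C8 was 3.59 lower (a log2 difference of -3.59), with signals of 70.6, 140.9 and 2.5. The last signal is under the floor, and with a floor at the 40th percentile the H3C8 difference was -2.37. With 1 array per siRNA, neither difference was tested.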

How the results depend on the processing

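No paired analysis was possible because each siRNA has 1 array, and leaving out an array leaves no comparison. Of the counts, medians and single values that answer a comparison, 182 of 228 values under other settings stayed within 1.5 times. Scaling to the same median or by quantiles moved none of them. The 182 include values that a setting cannot alter, so that share overstates stability. Examples are medians and log2 fold changes under another fold threshold, and the H4C3-designed set under another filter. For the gene table, removing the filter gave 1 lower with SETD8 siRNA 1, 4 lower with SETD8 siRNA 2, 1 lower with both and 3 lower between the siRNAs, over 35 members, against 8.59%, 8.16%, 3.73% and 8.75% of all genes, with medians of 0.14 and 0.38. The median turned to -0.37 for H1 with SETD8 siRNA 2 and to -0.48 for H2A with SETD8 siRNA 1. A filter at the 75th percentile left 9 members, 3 higher with SETD8 siRNA 1, 0 lower with SETD8 siRNA 2, and 1 higher and 0 lower between the siRNAs, against 4.04%, 4.49%, 4.42% and 4.28%. The H1 median with SETD8 siRNA 1 then was 0.03 and that of histone transcription -0.02. Choosing from the control array gave 2 lower with SETD8 siRNA 2 and 2 lower between the siRNAs (8.89% and 6.65% of all genes), and choosing from the SETD8 siRNA arrays gave 0 and 0 (5.96% and 6.36%) and an H3 median of 0.79 with SETD8 siRNA 2. Averaged probe sets turned the SETD8 siRNA 1 medians of histone transcription to -0.27 and of polyadenylation factors to 0.06.

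Without _s_at and _x_at sets, 13 members stayed, with 0 lower with SETD8 siRNA 2 and 0 lower between the siRNAs (6.68% and 6.71% of all genes), medians of -0.48 for H2A with SETD8 siRNA 1 and 0.79 for H3 with SETD8 siRNA 2, and -0.48 for KMT5A with SETD8 siRNA 1. At 1.5-fold, SETD8 siRNA 1 gave 12 higher and 1 lower, SETD8 siRNA 2 gave 3 lower, both gave 11 higher and 1 lower, and between the siRNAs 4 were higher and 2 lower. Of all genes at 1.5-fold, 12.7% were higher and 16.4% lower with SETD8 siRNA 1, 14.7% were lower with SETD8 siRNA 2, 4.6% and 7.38% were higher and lower with both, and 14.3% and 13.5% between the siRNAs. At 3-fold, 2, 3 and 2 were higher with SETD8 siRNA 1, SETD8 siRNA 2 and both, and 0 were higher between the siRNAs, against 2.48%, 1.41%, 0.463% and 2.27% of all genes. H2BC11 had log2 fold changes of 2.35 and 2.46 with a pseudocount of 16.

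For probe sets with both siRNAs, sets of 1 gene and unique suffix were 3 higher and 0 lower with a floor at the 40th percentile, 2 and 0 with the filter at the 75th percentile or on the control array, and 0 lower with that on the SETD8 siRNA arrays. They were 8 and 4 at 1.5-fold, 2 and 0 at 3-fold, and 3 and 0 when filtered at the median, a setting added after seeing the data. Sets with a cross-binding suffix were 7 higher at 1.5-fold and 1 at 3-fold. Sets listing several genes were 2 higher at the 75th percentile, 8 at 1.5-fold and 1 at 3-fold. Fewer sets pass the stricter filters and folds by construction, and other causes were not tested. The H4C3-designed set ranged from -3.60 to -3.49 with SETD8 siRNA 1 and from -3.42 to -3.32 with SETD8 siRNA 2 over the settings of scaling, floor and pseudocount. The other settings do not enter its value.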
